A study of Mus musculus with 6 samples.

Results

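Among the methylated regions of the 19 mouse autosomes, 274 held a peak in common myeloid progenitors (CMP) and a peak in erythroblasts (ERY) but none in hematopoietic stem cells (HSC). They were selected on the presence and absence of called peaks, by merging the peaks of the 3 cell types wherever these overlapped or touched, which gave 85078 regions in all, and keeping those with a CMP peak and an ERY peak and no HSC peak. The 274 regions made up 0.322% of all merged regions (95% exact binomial interval 0.285 to 0.362%) and covered 207561 bp. Their number is therefore a description and carries no test.

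Methylated DNA was captured with MBD2, which binds DNA through methylated CpG sites, and the captured fragments were sequenced as 36 bp single-end reads. Per the labels, all samples were from female C57BL/6 mice, with no genetic change or treatment named. HSC (lineage-negative, Sca-1 positive, c-kit positive) and CMP (lineage-negative, Sca-1 negative, c-kit positive) were sorted from adult bone marrow, while the sources at hand do not say how the ERY cells were isolated. Each cell type had 1 MBD2-enriched library with 1 deposited peak list, so the cell types cannot be compared against a spread between replicates, and the 3 supernatant libraries of the 6 samples were not analysed here. The identity of the cells could not be checked against marker genes, since the lists hold positions and no expression.

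In mammals DNA methylation is placed mainly on cytosines of CpG sites, is copied at cell division by a maintenance enzyme and can be added at new sites by de novo enzymes. Stem cells pass through multipotent and myeloid progenitor stages before they enter the erythroid line, and erythroid maturation is known for a broad loss of DNA methylation. The c-kit positive, Sca-1 negative gate is also known to take in granulocyte-macrophage and megakaryocyte-erythroid progenitors, and the gate used for HSC to take in multipotent progenitors. Gained in progenitors and kept in erythroblasts is a name for the pattern of peaks described here. A peak list shows where enriched reads passed the authors' threshold, so the absence of an HSC peak is not a measurement of unmethylated DNA.

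Each of the 274 regions was a simple pair, with exactly 1 CMP peak and 1 ERY peak. The autosomal lists behind them held 83430 HSC, 49054 CMP and 27266 ERY peaks, so the list that lacks these regions is the longest one. Read depth is unknown for all 3 libraries, and a difference in sensitivity between them cannot be told apart from a difference between the cell types. The X chromosome held 8 further regions of the same pattern and Y held 1, which are outside the set described. Female mice carry no Y chromosome, so a region on Y was not foreseen from the sex given in the labels. How it arose was not tested, and it does not decide the sex of the mice.

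The widest region lay on chromosome 15 at 74915560 to 74917932 (2373 bp, mm9). Its ERY peak ran the whole length and its CMP peak filled 1982 bp inside it, so 83.5% of the region was covered in both cell types. No other region of the set had both peaks at 1000 bp or more. The nearest HSC peak was 60797 bp away, at 74978730 to 74979175, and 2 HSC peaks lay within 100 kb. The next widest region, on chromosome 7 at 6373112 to 6374555 (1444 bp), had a CMP peak of 1271 bp and a shorter ERY peak of 768 bp that was offset to its left.

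In 4 of the next regions by width the ERY peak was much the longer of the pair. On chromosome 14 at 49588277 to 49589657 the ERY peak spanned 1381 bp and the CMP peak 694 bp within it. On chromosome 11 at 88756399 to 88757761 the lengths were 1363 bp in ERY and 521 bp in CMP. These are regions where the 2 cell types shared a core and the ERY peak reached further on both sides. The same layout held on chromosome 14 at 55309739 to 55310986, with 1248 bp in ERY and 579 bp in CMP, and there an HSC peak stood 227 bp beyond the right edge. On chromosome 11 at 84089765 to 84091007 the CMP peak (364 bp) covered the smallest part of its ERY peak (1243 bp) of any region in the set, 29.3% of the pair's joint length.

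The remaining 4 of the 10 widest regions were more evenly covered. On chromosome 3 at 116609981 to 116611210 the CMP peak (1230 bp) enclosed an ERY peak of 985 bp, with an HSC peak 417 bp away. On chromosome 16 at 90899141 to 90900337 the ERY peak (1197 bp) enclosed a CMP peak of 924 bp. The first of these pairs shared 80.1% and the second 77.2% of their joint length, near the median of the set. On chromosome 8 at 41149984 to 41151038 the CMP peak measured 1055 bp and the ERY peak 778 bp. On chromosome 7 at 33082384 to 33083431 the CMP peak measured 633 bp and the ERY peak 1048 bp, with 1 HSC peak in the surrounding 100 kb.

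**Figure D1:**
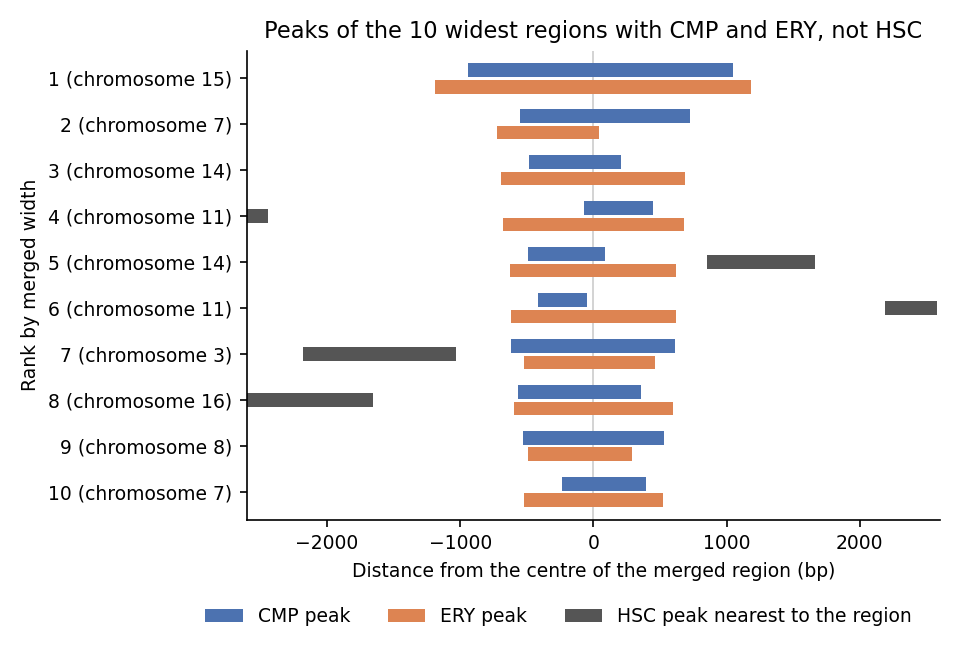
Position of the CMP peak (blue) and the ERY peak (orange) in each of the 10 widest regions, with the distance from the centre of the merged region in bp on the horizontal axis and the regions ranked by merged width on the vertical axis; grey bars are the nearest HSC peak where it falls inside the plotted window, cut off at the window's edge. The region on chromosome 15 is the widest at 2373 bp, and in 4 others (ranks 3 to 6) a long ERY peak encloses a CMP peak of 364 to 694 bp.

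Over the whole set the CMP and ERY peaks were of like length. CMP peaks ran from 265 to 1982 bp with a median of 659 bp (interval of the median 623 to 673), and ERY peaks from 218 to 2373 bp with a median of 666 bp (637 to 701). The ERY peak was the longer in 137 regions and the CMP peak in the other 137. Regions with a peak in all 3 lists, of which there were 24396, had median covered lengths of 898 bp in CMP and 802 bp in ERY. In those, ERY covered more bases than CMP in 29.0% of regions (28.4 to 29.5%), against 50% (43.9 to 56.1%) in the regions without an HSC peak.

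Which peak of a pair is the longer depends in part on the length of the CMP peak by construction, so the shares were also taken within classes of that length. In regions with an HSC peak, length is the bases covered by all peaks of the cell type. For CMP peaks from 400 to under 600 bp, ERY was the longer in 67.5% of the 77 regions without an HSC peak (55.9 to 77.8%) and in 73.4% of the 1694 with one (71.2 to 75.5%). Among regions whose CMP peak measured 600 to under 800 bp, ERY was the longer in 47.7% of the 111 without an HSC peak (38.2 to 57.4%) and in 53.8% of the 5843 with one (52.6 to 55.1%). Among those of 800 to under 1000 bp the shares were 16.3% of 49 (7.32 to 29.7%) and 18.6% of 8861 (17.8 to 19.4%). At 1000 bp or more they were 16.7% of 6 (0.421 to 64.1%) and 11.5% of 7711 (10.8 to 12.2%), and under 400 bp 74.2% of 31 (55.4 to 88.1%) and 51.6% of 287 (45.6 to 57.5%). The intervals overlapped in each of the 5 classes, under 400 bp only slightly.

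**Figure D2:**
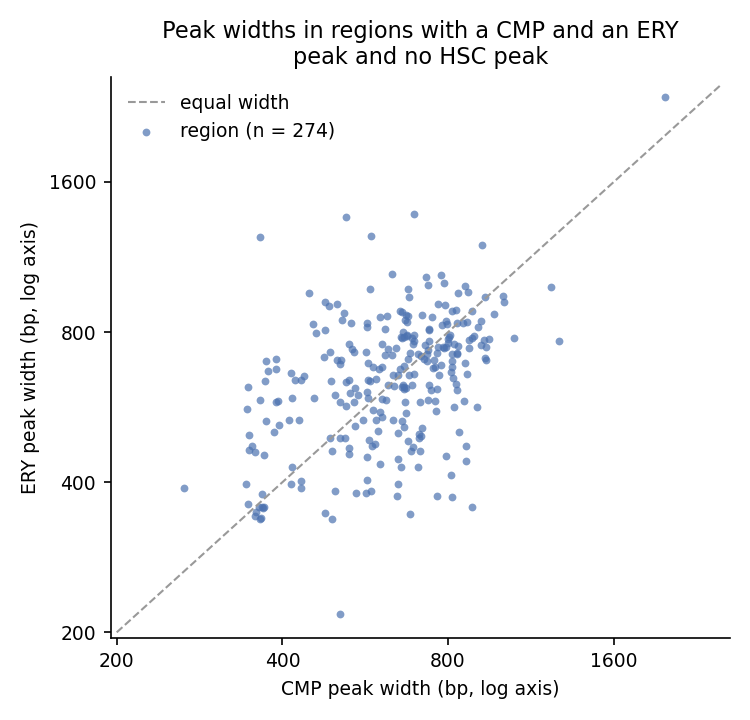
Width of the ERY peak against the width of the CMP peak, both in bp on log axes, with 1 point for each of the 274 regions and a dashed line at equal width. Points fall evenly on both sides of the line (137 above and 137 below), with a small tight group of narrow pairs under 400 bp and the chromosome 15 region at the upper right.

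The paired peaks overlapped over most of their length. The bases covered in both cell types made up a median of 76.8% of those covered in either (interval 73.6 to 79.1%), and in 265 of 274 regions each peak overlapped at least 50% of the other. In regions with all 3 peaks the corresponding median for CMP and ERY was 78.8%. The left edges of the pair differed by a median of 78.5 bp and the right edges by 75 bp, against 88 and 87 bp in regions of all 3 lists. Neither cell type extended further in a constant direction, as the ERY peak reached further left in 141 regions and further right in 128.

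Some pairs had almost identical boundaries. On chromosome 4 at 145693501 to 145694236 the CMP peak measured 736 bp and the ERY peak 735 bp, with the same left edge. On chromosome 19 at 47328849 to 47329789 they measured 935 and 941 bp, and on chromosome 9 at 73148784 to 73149439 they measured 648 and 655 bp. The latter 2 regions lay close to an HSC peak all the same, 45 bp away on chromosome 19 and 157 bp away on chromosome 9. In 48 of 274 regions (17.5%, 13.2 to 22.5%) both edges matched within 50 bp, against 10.9% (10.5 to 11.3%) of regions in all 3 lists. Of these 48, 11 were among the 12 pairs with both peaks under 400 bp. Without such pairs the shares were 14.1% of 262 (10.1 to 18.9%) and 10.3% of 24236 (9.97 to 10.7%), with overlapping intervals. Beside the regions on chromosome 11 given above, the pair that shared least was on chromosome 1 at 58734622 to 58735506, where an ERY peak of 357 bp lay inside a CMP peak of 885 bp.

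Regions without an HSC peak made up a larger share of the narrow CMP and ERY pairs than of the wide ones. Of the 24670 autosomal regions with both a CMP and an ERY peak, 1.11% lacked an HSC peak, which is the background share for all lengths. By CMP length, the share was 9.75% of 318 regions under 400 bp (interval 6.72 to 13.6%), 4.35% of 1771 from 400 to under 600 bp and 1.86% of 5954 from 600 to under 800 bp. It was 0.550% of 8910 regions from 800 to under 1000 bp and 0.0778% of 7717 at 1000 bp or more (0.0285 to 0.169%). By ERY length the shares ran in the same order, from 6.04% to 0.246%. The intervals of neighbouring CMP length classes did not overlap. A longer stretch meets an HSC peak more readily, and lengths are summed over the peaks that an HSC peak joins into 1 region. Part of this order is therefore built into the rule, and how much was not tested.

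A CMP peak outside the HSC list was accompanied by an ERY peak in 274 of 1714 regions, which is 16.0% (14.3 to 17.8%). The background is the same share where an HSC peak was present, 52.4% of 46514 regions (52.0 to 52.9%). Seen from ERY, a CMP peak was present in 21.5% of the 1274 ERY regions without an HSC peak (19.3 to 23.9%), against a background of 95.9% of 25444 regions with one (95.6 to 96.1%). The great majority of CMP peaks and of ERY peaks outside the HSC list were thus each seen in a single cell type, 1440 in CMP and 1000 in ERY. Regions count as members through these same lists, so the shares describe the set and were not tested. With the wider 50% of the CMP and ERY lists and all HSC peaks, 17 regions met the rule in place of 274, and the shares without an HSC peak were 5.96% from CMP and 5% from ERY, against 41.9% and 76.2% with one.

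The shares also stood apart within classes of like covered length, which is summed over all peaks of the cell type in a region. For a CMP covered length of 800 to under 1000 bp, an ERY peak was present in 15.6% of 315 regions without an HSC peak (11.7 to 20%). With an HSC peak it was present in 55.5% of 15966 (54.7 to 56.3%). At 1000 bp or more the values were 23.1% of 26 regions (8.97 to 43.6%) and 78.6% of 9815 (77.7 to 79.4%). Where an HSC peak was present the share was higher in each longer class from 400 bp upward, while where it was absent the intervals of all 5 length classes overlapped. Under 400 bp the shares were closest, 22.8% of 136 (16.0 to 30.8%) and 34.9% of 823 (31.6 to 38.2%).

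**Figure D3:**
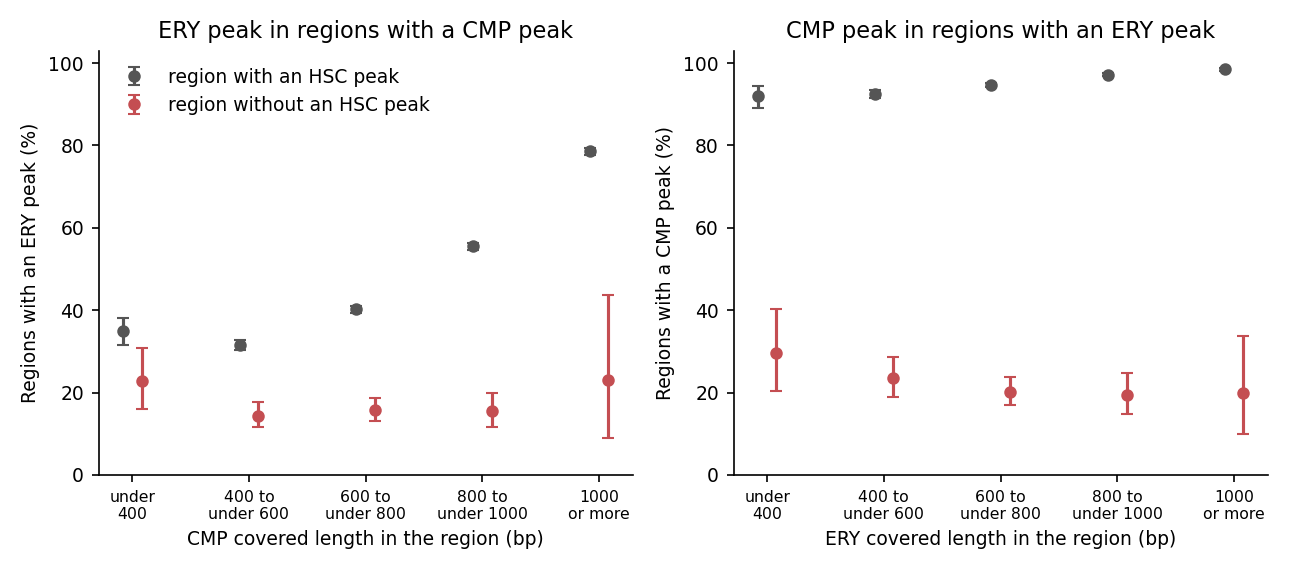
Left: percentage of regions with a CMP peak that also hold an ERY peak, by CMP covered length in bp; right: percentage of regions with an ERY peak that also hold a CMP peak, by ERY covered length; grey points are regions with an HSC peak, red points regions without, and bars are 95% exact binomial intervals. Red points lie below the grey ones in each length class, at 14.4 to 23.1% on the left and 19.4 to 29.7% on the right.

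The nearest HSC peak lay at very different distances from one region to the next. The gap ran from 13 to 234890 bp with a median of 6472.5 bp (interval 4897 to 8030). The median was 2246 bp, given without an interval, over the 17 regions left by the wider 50% of the CMP and ERY lists. The median was 6386 bp for CMP peaks alone and 7780.5 bp for ERY peaks alone. An HSC peak stood within 1 kb of 49 of the 274 regions (17.9%, 13.5 to 22.9%). The shares were 14% for CMP alone (12.3 to 15.9%) and 12.5% for ERY alone (10.5 to 14.7%), and both intervals overlapped that of the set. Within 5 kb the shares were close, at 44.9% of the set (38.9 to 51.0%) and 43.8% for CMP alone (41.2 to 46.4%). For ERY alone the share within 5 kb was 38.8% (35.8 to 41.9%), whose interval also overlapped that of the set. At the other end, 45 regions (16.4%, 12.2 to 21.4%) had no HSC peak within 50 kb. The shares were 8.89% for CMP alone (7.47 to 10.5%) and 10.5% for ERY alone (8.67 to 12.6%). The set's interval lay above that of CMP alone and slightly overlapped that of ERY alone.

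Some members met the rule by a small margin. The 3 nearest to an HSC peak were on chromosome 2 at 172334728 to 172335536, with a gap of 13 bp, on chromosome 4 at 148520083 to 148520897, with 36 bp, and the chromosome 19 region at 45 bp. In all, 6 of the 274 regions had an HSC peak within 100 bp. Such small gaps were not particular to the set, as the smallest was 18 bp for CMP alone and 2 bp for ERY alone. Just outside the rule, the all-3 region with the smallest contact shared 87 bp with an HSC peak, on chromosome 4 at 155215708 to 155217015. The next shared 218 bp, on chromosome 2 at 81350731 to 81351132 and on chromosome 12 at 45871927 to 45872324. Contact was otherwise extensive, with a median of 85.5% of the CMP and ERY stretch under an HSC peak, so few regions sat close to the border on the outer side.

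Other members stood far from any HSC peak. The most distant was on chromosome 6 at 81249862 to 81250445, 234890 bp away, with a CMP peak of 389 bp and an ERY peak of 580 bp. It was followed by chromosome 8 at 104490008 to 104490440 (213914 bp away) and chromosome 12 at 7483288 to 7483935 (150479 bp away). These 3 were among 11 regions with no HSC peak within 100 kb. The 11 made up 4.01% of the set (2.02 to 7.07%), against 3.26% for CMP alone (2.41 to 4.32%), with overlapping intervals. The interval for ERY alone also overlapped that of the set, so at 100 kb the set did not stand apart from these classes. The 45 regions over 50 kb away were narrower than the others, with a median merged width of 675 bp against 766 to 781 bp in the nearer distance classes. CMP-alone and ERY-alone regions over 50 kb from an HSC peak were likewise the narrowest of their class, at 606.5 and 613 bp.

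**Figure D4:**
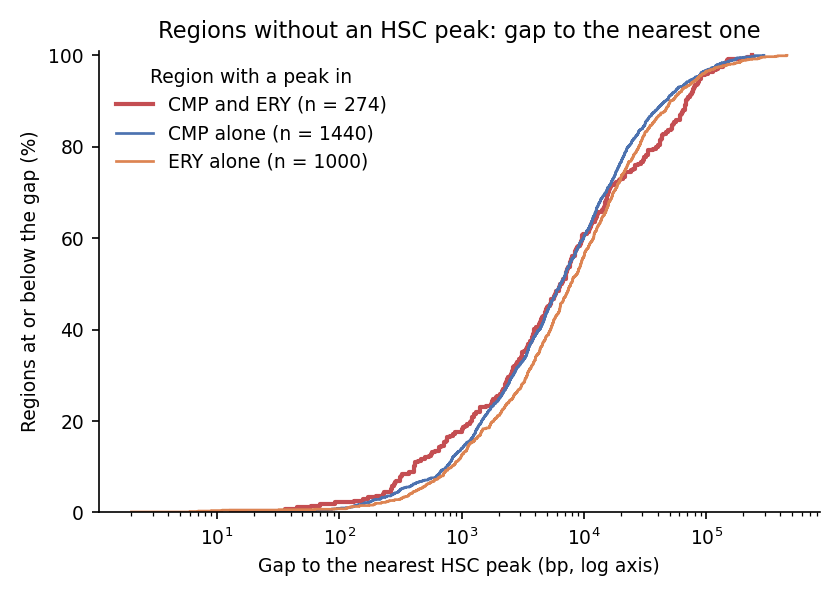
Cumulative percentage of regions (vertical axis) by gap to the nearest HSC peak in bp (log axis), for the 274 regions with CMP and ERY peaks (red), 1440 with CMP alone (blue) and 1000 with ERY alone (orange). At 1 kb the red line stands at 17.9%, above 14% for CMP alone and 12.5% for ERY alone. At 5 kb it stands at 44.9%, against 43.8% for CMP alone and 38.8% for ERY alone. At 50 kb it stands at 83.6%, below 91.1% for CMP alone and 89.5% for ERY alone.

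The surroundings of the regions were poorer in HSC peaks than those of regions with all 3 peaks, and much like those of regions with CMP alone or ERY alone. Within 100 kb the regions of the set had a median of 8 HSC peaks (interval 6 to 9), against 13 for regions of all 3 lists, whose own HSC peak is counted among them. The median was 9 each for CMP alone (8 to 10) and ERY alone (8 to 9). The HSC list also set which regions are in the set and which are in all 3 lists, so the contrast between these follows in part from the rule. The HSC peak next to each region belonged to each class in about the proportions of all regions with an HSC peak. It was in a region of HSC alone in 39.1% of cases (33.2 to 45.1%), of HSC and CMP in 26.3% (21.2 to 31.9%) of all 3 in 32.8% (27.3 to 38.8%) and of HSC and ERY in 1.82% (0.595 to 4.21%). Over all 82364 regions with an HSC peak these classes made up 42.3%, 26.9%, 29.6% and 1.27%, each inside the interval.

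Some of the regions lay close together. Another region of the set lay within 100 kb of 33 of the 274 (12.0%, 8.44 to 16.5%), on 9 chromosomes. The same 274 regions lay within 100 kb of 3.19% of regions with CMP alone (2.35 to 4.24%), 4.90% of those with ERY alone (3.65 to 6.43%) and 3.19% of those with all 3 (2.98 to 3.42%). At 100 kb, proximity to regions of CMP alone or ERY alone did not show this difference, as 28.5% of the set (23.2 to 34.2%) and 26.8% of all-3 regions (26.3 to 27.4%) had one. At 5 kb, 4.38% of the set (2.28 to 7.53%) and 2.12% of all-3 regions (1.94 to 2.30%) had one, with intervals that barely overlapped. Of the 17 regions of the wider 50% of the CMP and ERY lists, 0 had another of the 17 within 100 kb. By an approximation of 3 counts over 17 this allows a share of up to 17.6%. With only 17 possible neighbours in place of 274, 0 was likely from the start, so it cannot decide whether wide regions lie close together. Neighbouring regions share their surroundings and are not independent, and the intervals do not allow for that.

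The closest pair was on chromosome 11, at 31353176 to 31353772 and 31354031 to 31355032, 258 bp apart. It stood in a stretch with 1 HSC peak within 100 kb, 68174 bp from the nearer region. The CMP peaks measured 456 and 787 bp and the ERY peaks 591 and 1002 bp. A further pair on chromosome 11, at 14798360 to 14798832 and 14799440 to 14800099, was 607 bp apart and lay 1269 bp from an HSC peak at the nearer side.

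On chromosome 7 the regions at 7024996 to 7025690 and 7026694 to 7027157 were 1003 bp apart, and another followed 5684 bp further on, at 7032842 to 7033800. In all 3 the ERY peak enclosed the CMP peak, with ERY lengths of 695, 464 and 959 bp and CMP lengths of 572, 348 and 448 bp. On chromosome 1 the regions at 111028944 to 111029301 and 111032721 to 111033459 lay 3419 bp apart with no HSC peak within 100 kb of either. On chromosome 4 the regions at 145688393 to 145689044 and 145693501 to 145694236 lay 4456 bp apart on either side of an HSC peak at 145689765 to 145690556. That HSC peak belonged to a region of HSC alone, so this stretch had CMP and ERY peaks at 2 flanking positions and an HSC peak between them.

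Every autosome carried at least 3 of the regions. Chromosome 7 had 24, chromosome 4 had 23 and chromosome 5 had 22, while chromosome 16 had 5 and chromosome 18 had 3. Set against the regions with CMP and ERY peaks on each chromosome, the share without an HSC peak ranged from 0.342% on chromosome 18 (interval 0.0706 to 0.996%) to 2.10% on chromosome 14 (1.25 to 3.30%). The intervals of these 2 chromosomes lay on opposite sides of the pooled 1.11%, and those of the other 17 included it. Of the 274 regions, 23 (8.39%, 5.40 to 12.3%) lay in the distal 10 Mb of a chromosome, measured from the last HSC peak. Regions with all 3 peaks lay there in 14.4% of cases (13.9 to 14.8%), those with CMP alone in 12.2% (10.5 to 14%) and those with ERY alone in 9.50% (7.75 to 11.5%).

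**Figure D5:**
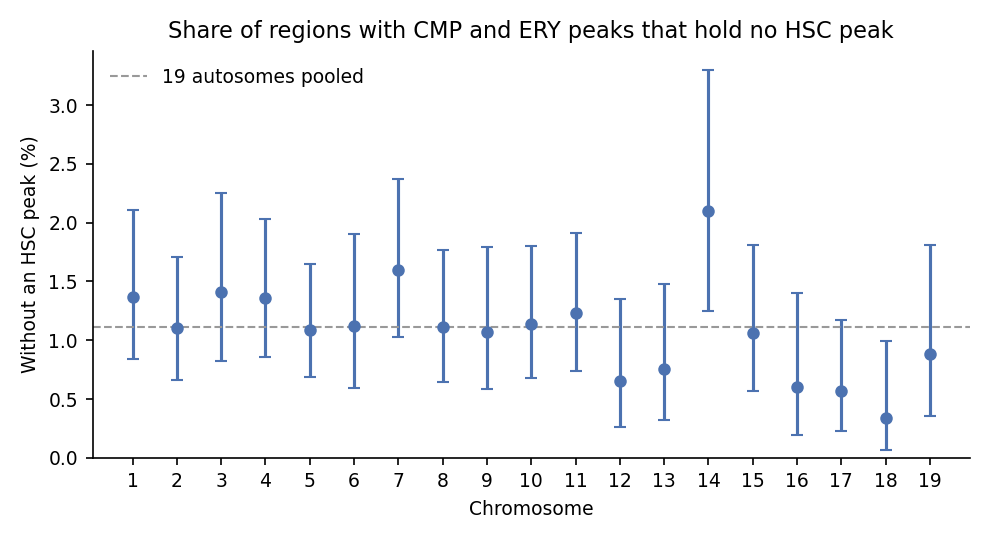
Percentage of regions with CMP and ERY peaks that hold no HSC peak (vertical axis) on each autosome, with 95% exact binomial intervals and a dashed line at the pooled 1.11%. Chromosome 14 is highest at 2.10% and chromosome 18 lowest at 0.342%, and the intervals of the other 17 cross the line.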

How the data were processed

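The authors deposited 1 peak list for each MBD2-enriched library. Each is a genome browser table export per the file headers, with chromosome, start and end of each peak and no height, score or p-value. Coordinates are on mm9, as the submitters' processing notes name it. For the aligner, caller, threshold and control, nothing is stated (not given in the sources used here). Depth is unknown.

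Peaks of chromosomes 1 to 19 that overlapped or touched were merged, and each region was put in 1 of 7 classes by the lists present. Gaps are counted in bases between edges, and coordinates are printed 1-based. Python 3.11.15, numpy 2.4.6, pandas 2.3.3, scipy 1.17.1 and matplotlib 3.10.9 were used. Merging was checked against bedtools 2.31.1, which gave 85078 regions and 274 members too, and tested on simulated data.

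Intervals of shares are 95% exact binomial (Clopper-Pearson), except the limit for 0 of 17, which is an approximation (3 counts over 17). Intervals of medians are exact order-statistic intervals. Values under the alternative settings, and some other shares and medians, are printed without an interval. Both kinds of interval treat regions as independent and cover counting error only. No test between cell types was run, since each has 1 library. The regions named were the 10 widest, the 3 nearest to and 3 farthest from an HSC peak, the 3 with the highest and 3 with the lowest shared percentage, and the 5 closest pairs within 100 kb; the chromosome 7 region at 7032842, those just outside the rule and the narrow pair on chromosome 2 were named after their values were seen. The members and lists were chosen with earlier results of these data known.

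The gene and promoter tables at hand are of another assembly (GRCm38), so genes, sequences and motifs at the regions are not analysed here.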

Additional observations from a re-analysis of the deposited data

How the results depend on the processing

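With 1 library per cell type, no replicate could be left out. No paired analysis was possible because each cell type has 1 sample and no result comes from a test. Leaving out each autosome in turn gave 250 to 271 regions and kept each of the 10 results tried inside its interval or within 1.5 times; no single chromosome can hold enough regions to change the count by that much. Joining only peaks that share 1 bp, or requiring the CMP and ERY peak to overlap directly, gave the same 274. Those 2 settings could change only regions whose peaks touch without sharing a base, so the same count was nearly fixed by the rule. Requiring 50% of both gave 265.

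Only the wider 50% of the CMP and ERY lists, with all HSC peaks, left 17 regions with a median width of 958 bp. Of these, 64.7% lay within 5 kb of an HSC peak, against 44.9% of the 274 regions of the main setting. The median gap was 2246 bp, and a median of 88.9% of the pair was shared. These values rest on 17 regions and are given without intervals, so their difference from the main setting is uncertain. Both peaks must then pass a width limit, which removes narrow pairs by construction. In these lists, an ERY peak was present in 5.96% of CMP regions without an HSC peak and 41.9% with one, and a CMP peak in 5% and 76.2% of ERY regions. Of the 17, 0 had another of the 17 within 100 kb, an outcome made likely by the small number of possible neighbours. By an approximation of 3 counts over 17 it allows a share of up to 17.6%. Joining peaks up to 500 bp apart gave 238 regions, 37.0% within 5 kb of an HSC peak, a median gap of 8222 bp and 53.1% with ERY among CMP regions with HSC. Removing regions within 1 kb of an HSC peak gave 225, with 32.9% within 5 kb and a median gap of 9455 bp. The last 2 settings remove regions near HSC peaks by construction. Including X and Y gave 283 regions, with the Y region not foreseen from the labels among them, and 51.9% with ERY among CMP regions with HSC.

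The alternatives for the carry-over shares, for pairs within 100 kb and for edges without narrow pairs were chosen after seeing the data. Those for sequence, motifs and gene features were not run.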

Other observations

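A small group of the regions consisted of very narrow, closely matched peaks, singled out after their values were seen. In 12 of the 274 (4.38%, 2.28 to 7.53%) both peaks were under 400 bp, against 0.656% (0.558 to 0.765%) of regions in all 3 lists. Part of this difference is built into the rule, as stated for the length classes, and how much was not tested. Their CMP peaks had a median of 363.5 bp and ranged from 265 to 371 bp, and their ERY peaks had a median of 356 bp and ranged from 337 to 396 bp. In 11 of the 12 both edges matched within 50 bp, and the median share covered in both was 95.8%. Such narrow pairs in all 3 lists numbered 160, with a like median of 96.7%, and their HSC covered length had a median of 457.5 bp (quartiles 451 and 484.8).

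The 12 narrow regions lay on chromosomes 1, 2, 4, 5, 6, 16 and 19. The region on chromosome 2 at 47051475 to 47051844 had peaks of 369 and 355 bp whose edges differed by 1 and 15 bp, and no HSC peak within 124801 bp. Of the 12, 3 lay over 50 kb from any HSC peak and 3 within 5 kb. Repeats and ease of read placement at these positions were not examined.

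Merging hid few further peaks of this kind. On the autosomes 1719 CMP peaks stood apart from every HSC peak, and 5 of them were in regions of all 3 lists, where another peak joined them to an HSC peak. For ERY the numbers were 1281 and 7.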
